A study of Homo sapiens with 6 samples.

Results

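A set of 9 transcription factors of the neuroendocrine lineage was followed in NCI-H660 cells given either PBS or pyrvinium pamoate (PP). These were *INSM1*, *NEUROD1*, *POU3F2*, *ONECUT2*, *FOXA1*, *FOXA2*, *NKX2-1*, *SOX2* and *SOX11*, taken by symbol as 9 of the 17177 genes in the deposited expression table. NCI-H660 is an established line of neuroendocrine prostate cancer (NEPC) cells, and PP is an anthelmintic drug that the study used to inhibit the RNA-binding protein ELAVL3. The labels give both groups the genotype WT, collection on day 3 and total RNA as the extracted molecule. There were 3 libraries from cells treated with PBS and 3 from cells treated with PP. For its RNA sequencing the study names enrichment of mRNA on oligo(dT) beads. The concentration of PP in these cultures is not given in the sources used here. The study describes its samples as independent, but the sources used here do not say whether each came from a separate culture, so the P values below measure the spread between these libraries.

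Neuroendocrine carcinoma cells carry a network of DNA-binding proteins that they share with neurons and with the endocrine cells of the gut and lung. *INSM1* and *NEUROD1* belong to the proneural and endocrine programs, *POU3F2* and *SOX11* to developing neurons, and *SOX2* to stem and neural progenitor cells. *FOXA1* and *FOXA2* are pioneer factors that open chromatin in endodermal organs, *ONECUT2* is a homeodomain factor linked to lineage plasticity in prostate cancer, and *NKX2-1* directs lung and thyroid development and marks many small cell carcinomas. Expression was measured in FPKM, which scales the fragments of a gene to its length and to the depth of the library, so that levels of different genes could be set side by side. Whole fragment counts could be recovered behind the values, and they came to between 29064253 and 32481171 counts per library.

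The cells carried the markers of their label. All 5 neuroendocrine markers (*CHGA*, *CHGB*, *SYP*, *NCAM1* and *ENO2*) had a mean of at least 1 FPKM, and their summed level was 188.5 to 198.7 FPKM in the PBS libraries and 147.7 to 161.3 in the PP libraries. The table held 7 luminal prostate markers, of which *STEAP2* alone had a mean of at least 1 FPKM and *KLK4*, *TMPRSS2* and *FOLH1* were among the 6 below it. The luminal list summed to 2.48 to 2.86 FPKM with PBS and 2.37 to 2.50 with PP, and no marker of it was at 0 in every library. The sum did not follow *STEAP2*, the only luminal marker in the limma test described below. *STEAP2* was called higher with PP there, with a log2 fold change of 0.60. Of 14 fibroblast, endothelial and blood markers *COL1A1*, *CDH5* and *CD68* had a mean of at least 1 FPKM and 11, such as *COL1A2*, *DCN*, *PECAM1* and *PTPRC*, did not. None was at 0 in every library, and the list summed to 9.89 to 14.2 FPKM with PBS and 9.12 to 10.3 with PP. Fewer cells of a type and less RNA per cell cannot be told apart in libraries of this kind.

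In PBS-treated cells the factors spanned more than 3 orders of magnitude. *NKX2-1* was by far the highest, at 224 ± 2.94 FPKM (SD, n = 3), which placed it 166th among all genes of the table. It was followed by *FOXA1* at 74.1 ± 2.33 and *SOX2* at 55.9 ± 2.51, then by *INSM1* at 16.5 ± 0.978, *POU3F2* at 11.7 ± 0.529, *SOX11* at 5.43 ± 0.153 and *ONECUT2* at 4.42 ± 0.224 FPKM (SD, n = 3 each). The 3 PBS libraries of each of these genes lay entirely above those of the next gene in the order. *FOXA2* at 0.306 ± 0.169 and *NEUROD1* at 0.161 ± 0.0606 FPKM (SD, n = 3) were near the floor of the data, and their ranges overlapped. *NEUROD1* rested on only 9 to 18 counts per PBS library, against 15773 to 16548 for *NKX2-1*.

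**Figure D1:**
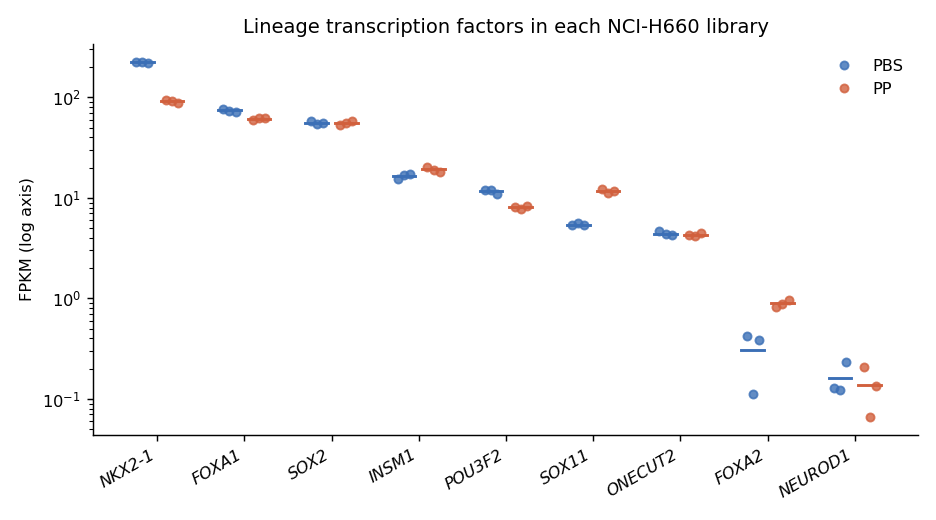
FPKM of the 9 lineage factors (log axis) in each of the 6 libraries, ordered by their level with PBS. Points are libraries and bars are the means of 3 libraries per treatment. *NKX2-1* is lower and *SOX11* higher in every PP library, and *SOX2* and *ONECUT2* overlap between the treatments.

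With PP the summed level of the 9 factors was 253 ± 1.05 FPKM (SD, n = 3), against 392 ± 5.85 with PBS. *NKX2-1* made up 57.1% of that sum with PBS and 36.3% with PP. The share of *SOX2* was 14.2% with PBS and 21.9% with PP, and that of *SOX11* was 1.38% and 4.65%. The level of *SOX2* itself was 55.9 FPKM with PBS and 55.5 with PP, so its larger share reflects the smaller sum. The order of the factors was the same in both treatments except for one exchange. *SOX11*, sixth with PBS, lay above *POU3F2* in all 3 PP libraries, and *FOXA2* no longer overlapped *NEUROD1*.

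Differences were tested on the log2(FPKM + 1) scale with limma over the 11726 genes with a mean of at least 1 FPKM, which held 7 of the 9 factors. *FOXA2* and *NEUROD1* fell below that mean and were tested over the 13771 genes with a mean of at least 0.1 FPKM. At a Benjamini-Hochberg adjusted p under 0.05, 3 factors rose (*SOX11*, *FOXA2* and *INSM1*), 3 fell (*NKX2-1*, *POU3F2* and *FOXA1*) and 3 did not pass (*SOX2*, *ONECUT2* and *NEUROD1*). PP moved much of the transcriptome, so these counts stand against a high background. Among the 11726 genes, 38.1% were called higher and 34.4% lower (72.5% in either direction), and among the 13771 genes 34.4% and 32.4% (66.8%). The same 6 factors had groups that did not overlap. That was the case for 39.5% of the 11726 genes with the PP libraries higher and 35.5% with them lower (75%), and for 36.6% and 34.2% of the 13771 genes (70.8%). A stricter cutoff, taken from the study's methods, asked for an unadjusted P under 0.001 together with a log2 fold change beyond 1 in size. Only *NKX2-1* of the 9 passed it, against 2.24% of the 11726 genes higher and 2.93% lower (5.18%), and 1.93% and 2.53% of the 13771 genes (4.47%).

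**Figure D2:**
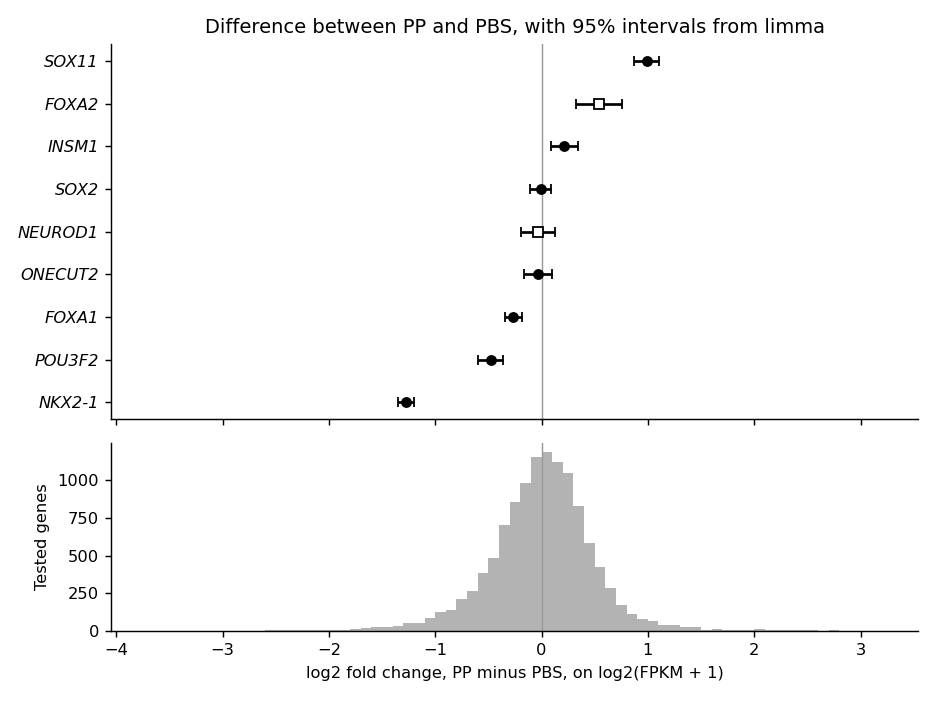
Upper panel, log2 fold change (PP minus PBS, log2(FPKM + 1) scale) of each factor with its 95% confidence interval from limma; open squares mark the 2 factors tested over genes with a mean of at least 0.1 FPKM. Lower panel, the same quantity for the 11726 tested genes, with a median of 0.02. *NKX2-1* at -1.28 and *SOX11* at 0.99 lie in the tails, and the intervals of *SOX2*, *ONECUT2* and *NEUROD1* span 0.

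*NKX2-1*, the lung and thyroid homeodomain factor, showed the largest fall of the 9. It stood at 225, 226 and 221 FPKM in the PBS libraries and at 94.6, 92.7 and 88.6 in the PP libraries. Every PP library was well under every PBS library, and the spread within a treatment was small beside the gap. The mean was 2.44-fold lower with PP, which limma gave as -1.28 on the log2 scale with a standard error of 0.03 (adjusted p = 5.66e-10). A smaller absolute change was found for 97.5% of the tested genes. Even so, at 92.0 ± 3.05 FPKM (SD, n = 3) *NKX2-1* remained the highest of the 9 with PP, at place 555 in the table.

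*FOXA1*, a pioneer factor of luminal cells, and *POU3F2*, the neuronal POU factor also called BRN2, fell less. *FOXA1* measured 76.8, 73.3 and 72.3 FPKM with PBS and 60.0, 62.4 and 61.8 with PP, a log2 fold change of -0.27 (standard error 0.04, adjusted p = 7.88e-05 from limma). *POU3F2* measured 11.9, 12.0 and 11.1 FPKM with PBS and 8.18, 7.74 and 8.36 with PP, a log2 fold change of -0.48 (standard error 0.05, adjusted p = 1.56e-05 from limma). Neither gene overlapped between the treatments. The mean of *FOXA1* was 1.21-fold and that of *POU3F2* 1.44-fold lower with PP. The change of *FOXA1* was of ordinary size for these libraries, since 49.1% of the tested genes changed less.

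*SOX11*, a SoxC factor of immature neurons, showed the clearest rise. It stood at 5.36, 5.60 and 5.31 FPKM with PBS and at 12.4, 11.2 and 11.8 with PP, so that all PP libraries lay at about the same distance above the PBS libraries. The mean was 2.17-fold higher, from 1478 to 1495 counts per PBS library and 3037 to 3484 per PP library. In limma it was higher by 0.99 ± 0.05 on the log2 scale (standard error; adjusted p = 8.16e-08), just short of the fold cutoff of 1, and 94.7% of the tested genes changed less. It passed that cutoff with a pseudocount of 0.1, at 1.10, and with limma-voom on the recovered counts, at 1.12, as well as without PBS replicate 2, at 1.01, and without PP replicate 2, at 1.03.

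*INSM1*, the zinc-finger factor used as a diagnostic marker of neuroendocrine tumors, rose slightly. Its values were 15.4, 16.9 and 17.2 FPKM with PBS and 20.5, 19.1 and 18.2 with PP. The groups did not overlap, but the gap between the highest PBS and the lowest PP library was narrow. In limma it was higher by 0.21 ± 0.06 on the log2 scale (standard error; adjusted p = 0.00679), and 40.3% of the tested genes changed less.

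*FOXA2*, the FOXA factor of foregut endoderm that is often present in NEPC, also rose, but from a level close to nothing. It measured 0.422, 0.111 and 0.383 FPKM with PBS and 0.828, 0.877 and 0.975 with PP. All PP libraries were above all PBS libraries, and PBS replicate 2 stood lowest with 9 counts, against 36 and 33 in the other PBS libraries and 70 to 88 in the PP libraries. In limma it was higher by 0.54 ± 0.10 on the log2 scale (standard error; adjusted p = 0.00072). At this level the pseudocount of 1 holds the estimate down: it was 1.397 with a pseudocount of 0.1 and 1.72 with limma-voom on the recovered counts. On the linear scale the mean was 2.92-fold higher with PP, and 2.22-fold without PBS replicate 2.

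The progenitor factor *SOX2* did not pass the test. Its values were 58.7, 53.9 and 55.0 FPKM with PBS and 53.4, 55.2 and 57.8 with PP, and the groups overlapped throughout. The log2 fold change was -0.01, with a 95% confidence interval of -0.11 to 0.09 (adjusted p = 0.859 from limma), and it rested on 3969 to 4760 counts per library. *ONECUT2* measured 4.67, 4.34 and 4.24 FPKM with PBS and 4.24, 4.17 and 4.48 with PP. Its log2 fold change was -0.03, with an interval of -0.16 to 0.10 (adjusted p = 0.635 from limma).

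*NEUROD1*, the bHLH factor that defines a subtype of small cell carcinoma, was barely detected. It had 10, 9 and 18 counts in the PBS libraries and 16, 5 and 11 in the PP libraries, or 0.130, 0.123 and 0.231 against 0.209, 0.0664 and 0.135 FPKM. A difference was not detectable at this depth (log2 fold change -0.03, interval -0.19 to 0.13, adjusted p = 0.72 from limma). *NEUROD1* overlaps *CERKL* on the same strand, which makes counts this low uncertain.

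Because FPKM is scaled to length, related factors could be compared within a library. *SOX11* stood at 9.14% to 10.4% of the *SOX2* level in the PBS libraries and at 20.2% to 23.2% in the PP libraries, a difference of 1.13 in the log2 ratio. *FOXA2* stood at 0.152% to 0.55% of the *FOXA1* level with PBS and at 1.38% to 1.58% with PP, a difference of 2.04 in the log2 ratio. That of *FOXA2* was 1.43 without PBS replicate 2, and *FOXA1* thus remained the main FOXA transcript of the pair in every library. In the two-sided exact permutation test over libraries p was 0.1 for each ratio, the smallest value that 3 against 3 libraries can give.

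**Figure D3:**
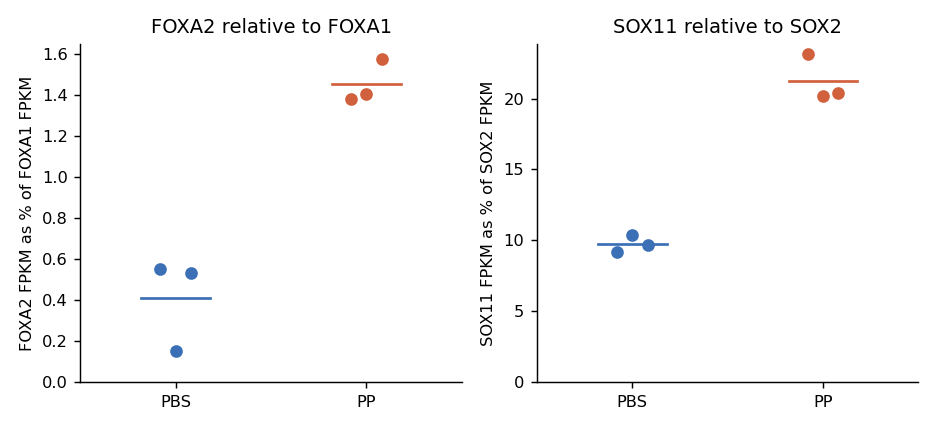
FPKM of *FOXA2* as a percentage of *FOXA1* (left) and of *SOX11* as a percentage of *SOX2* (right) in each library, with bars at the means of 3 libraries; both axes start at 0. Both ratios are higher in every PP library, and PBS replicate 2 is the lowest for *FOXA2*.

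Close relatives did not follow the factors in one direction. Of 21 listed relatives 15 were in the table and 8 had a mean of at least 1 FPKM. Of these 6 rose and 2 fell at an adjusted p under 0.05 from limma, against 38.1% of all tested genes higher and 34.4% lower. *SOX21*, among the 6, reached a mean of 1 FPKM only through the PP libraries. This list and those below were chosen with earlier results of these data known. The median log2 fold change was 0.42, against 0.02 over all tested genes. In the NKX2 family *NKX2-1* fell, while *NKX2-4* rose from 4.995 ± 0.635 to 10.5 ± 0.884 FPKM and *NKX2-8* from 1.45 ± 0.464 to 2.59 ± 0.255 (SD, n = 3). Neither came near the level of *NKX2-1*. In the FOXA family *FOXA1* fell, while *FOXA3*, a liver and gut factor, rose from 4.35 ± 0.357 to 6.67 ± 0.538 FPKM (SD, n = 3) along with *FOXA2*.

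The SoxC group, which acts in neuronal differentiation, was divided as well. *SOX11* rose, while its relatives *SOX12* (log2 fold change -0.26) and *SOX4* (-0.13) were the 2 that fell. *SOX4* was the most abundant of the group in both treatments, at 103 ± 0.0667 FPKM with PBS and 94.2 ± 3.04 with PP (SD, n = 3). *SOX21*, of the SoxB genes like *SOX2*, rose from 0.829 ± 0.164 to 2.45 ± 0.341 FPKM (SD, n = 3), from 55 to 86 counts per PBS library. *INSM2* (log2 fold change 0.33) and *ONECUT1* (0.20) rose from means under 2 FPKM. *SOX4* and *INSM2* were chosen after their values were seen. How the authors' counting treated reads that fit more than 1 member of a family is not given in the sources used here, which leaves relatives at low levels uncertain.

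Other factors of the proneural and neuroendocrine program were mostly lower with PP. Of 39 listed, 36 were in the table and 16 had a mean of at least 1 FPKM, of which 12 fell and 2 rose (among them *NKX6-1* at 0.60, named after its value was seen), against 34.4% of all tested genes lower and 38.1% higher. The median log2 fold change was -0.48, against 0.02 over all tested genes, and 5 of the 16 were lower at the stricter cutoff, against 2.93% of the tested genes. *NEUROG3*, named after its value was seen, is among the 12 and among the 5. It reached a mean of 1 FPKM only through the PBS libraries, at 2.09 ± 0.289 FPKM with PBS and 0.245 ± 0.161 with PP (SD, n = 3). This list was chosen with earlier results of these data known. *MYCL*, a MYC family gene of small cell carcinoma, fell from 30.6 ± 0.522 to 7.70 ± 0.266 FPKM (SD, n = 3), and the homeobox gene *DLX5* from 23.0 ± 0.589 to 5.32 ± 0.343. *HES6*, which promotes neural differentiation and lies downstream of proneural factors, fell from 101 ± 7.11 to 32.6 ± 3.99 FPKM (SD, n = 3).

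Factors that hold back neural or neuroendocrine genes, listed with the YAP and TEAD genes, changed in both directions. Of 20 tested, 9 fell and 5 rose, against 34.4% of all tested genes lower and 38.1% higher, with a median log2 fold change of -0.07 against 0.02. The ID proteins, which bind and block bHLH factors, fell in 3 cases, with log2 fold changes of -2.17 for *ID2*, -1.60 for *ID1* and -0.82 for *ID3*. *ID2* alone went from 333 ± 12.1 to 73.1 ± 1.63 FPKM (SD, n = 3). Also lower were *TEAD1* (-0.52), *PTBP1* (-0.27), *CTBP1* (-0.26), *KDM1A* (-0.25), *CTBP2* (-0.23) and *SIN3A* (-0.15). The 5 that rose were *YAP1* at 0.91, *ID4* at 0.79, the Notch targets *HEY2* at 0.67 and *HES1* at 0.39, and *REST* at 0.66, the repressor of neuronal genes outside neurons. *YAP1* is a Hippo pathway effector that is usually silent in neuroendocrine carcinoma. Here it was already at 13.6 ± 0.365 FPKM with PBS, and at 26.3 ± 0.617 with PP (SD, n = 3). The 6 that did not pass were *HEY1* (0.07), *HES4* (-0.05), *WWTR1* (0.03), *TEAD4* (0.12), *RCOR1* (-0.09) and *RCOR2* (0.02). *REST* went from 4.99 ± 0.0412 to 8.45 ± 0.336 FPKM (SD, n = 3). *YAP1*, *ID1*, *ID2*, *ID3*, *REST*, *TEAD1*, *CTBP2* and *RCOR1* came by the naming rule. The others of this list, such as *ID4*, *HEY2* and *HES1*, were named after their values were seen.

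Epithelial lineage factors, listed with the ETS family genes *ERG* and *ETV1*, gave 8 tested genes of 17 in the table. Of these 4 rose and 1 fell, against 38.1% of all tested genes higher and 34.4% lower. The median log2 fold change was 0.20, against 0.02 over all tested genes. *KLF5* (0.85), *GATA6* (0.82) and *KLF4* (0.40), factors of gut and other epithelia, rose, as did *ETV1* (0.32, named after its value was seen), and *ERG* fell by 1.02 on the log2 scale. *ETV1* reached a mean of 1 FPKM only through the PP libraries, at 0.837 ± 0.106 FPKM with PBS and 1.29 ± 0.142 with PP (SD, n = 3). *FOXA1* has *GATA2* and *GRHL2* as partners in luminal cells, and neither passed the test; both were chosen after their values were seen.

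The neuroendocrine effector genes encode, among others, granule proteins, peptide-processing enzymes and neuronal proteins, and the list also held the surface antigen *CEACAM5*. More of its members fell than rose. Of 26 tested, 16 fell and 4 rose, against 34.4% of all tested genes lower and 38.1% higher, with a median log2 fold change of -0.28 against 0.02. The list was chosen with earlier results of these data known. The largest falls were those of *CEACAM5*, a surface antigen of neuroendocrine prostate cancer (-2.17), *PCSK2*, a prohormone convertase (-1.93), *DDC*, the aromatic amino acid decarboxylase (-1.70), and *TUBB3*, the neuronal tubulin (-1.16). The 4 that rose were the synaptotagmins *SYT4* (1.05) and *SYT1* (0.45), the growth cone gene *GAP43* (0.70) and the granin *SCG2* (0.66), which were named after their values were seen. Among the 5 defining markers *CHGA*, *CHGB*, *SYP* and *ENO2* fell, by 0.78, 0.32, 0.23 and 0.15 on the log2 scale, and *NCAM1* had a log2 fold change of -0.00 with an adjusted p of 0.997 from limma.

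Genes that NKX2-1 and the FOXA factors are known to drive in lung epithelium, or that mark it, were the list with the lowest median, -1.27 over 14 tested genes. Of 28 listed, 26 were in the table and 14 had a mean of at least 1 FPKM. Of these 11 fell and 1 rose (*ABCA3* at 0.21, named after its value was seen), against 34.4% of all tested genes lower and 38.1% higher, and 9 were lower at the stricter cutoff, against 2.93% of the tested genes. The list was written with earlier results known, and 3 of its genes had already stood out there as lowered. Without these 3 (*SFTPB*, *CEACAM6* and *TMEM100*), 8 of 11 fell and the median was -1.22. That median is the value of *MBIP*, a listed gene that lies 196 kb from *NKX2-1* on the chromosome. *SFTPB*, surfactant protein B, was 16.8-fold lower with PP, at 2.08 ± 0.295 FPKM against 34.9 ± 1.61 (SD, n = 3). *LPCAT1*, an enzyme of surfactant lipid synthesis, fell from 180 ± 3.55 to 34.0 ± 1.13 FPKM (SD, n = 3). *SFTPA1*, another surfactant protein, named after its value was seen, fell from 3.18 ± 0.205 to 0.115 ± 0.0488 FPKM (SD, n = 3), from 5 to 13 counts per PP library. *SFTPA1* reached a mean of 1 FPKM only through the PBS libraries, where it is high.

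**Figure D4:**
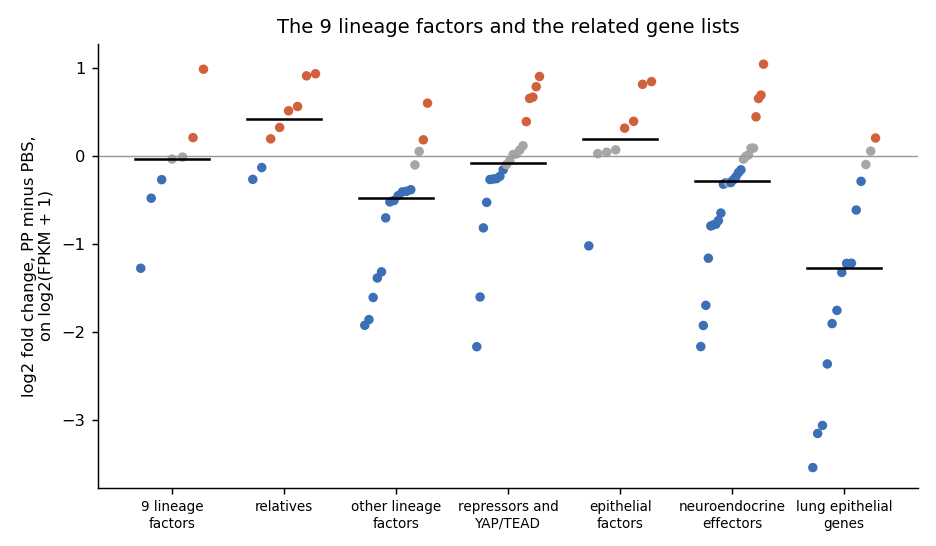
Log2 fold change (PP minus PBS, log2(FPKM + 1) scale) of every gene with a mean of at least 1 FPKM among the lineage factors (7 of 9) and in 6 related lists. Points in red were higher and in blue lower by limma (adjusted p under 0.05), grey points did not pass, and bars are medians. The medians run from -1.27 for the lung epithelial genes to 0.42 for the relatives.

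The pattern of each factor over the 6 libraries was set beside those of the other tested transcription factors of these lists by Pearson's r of log2(FPKM + 1). The r is a description, since all points share the same 6 libraries and 1 difference between treatments. *NKX2-1* was most like *ID2*, with r = 0.999. *SOX11* was most like *REST* (r = 0.998) and *YAP1* (r = 0.993), *POU3F2* like *DLX6* (r = 0.995) and *CTBP2* (r = 0.992), *FOXA1* like *TEAD1* (r = 0.986) and *SOX12* (r = 0.982), and *INSM1* like *ONECUT1* (r = 0.963) and *NKX2-8* (r = 0.957). *SOX2* and *ONECUT2*, which did not pass the test, were each other's closest, with r = 0.821. The next closest were *SIX2* for *SOX2* (r = 0.765) and *RCOR1* for *ONECUT2* (r = 0.721).

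Genes with a single exon were more frequent among the factors than among the tested genes. In the GENCODE annotation on GRCh37, 4 of the 9 (*INSM1*, *POU3F2*, *SOX2* and *SOX11*) have a single exon in their canonical transcript, or 44.4%, against 1.99% of 11588 annotated genes with a mean of at least 1 FPKM. These 4 did not move together: *SOX11* and *INSM1* rose, *POU3F2* fell and *SOX2* did not pass. *NKX2-1* (ENSG00000136352, chr14:36985597-36990354) and *FOXA1* (ENSG00000129514, chr14:38058757-38065264) lie on the minus strand about 1068 kb apart. *INSM1* (ENSG00000173404, chr20:20348748-20351593, plus strand) and *FOXA2* (ENSG00000125798, chr20:22561636-22566093, minus strand) lie about 2210 kb apart, and both rose. *SOX11* (ENSG00000176887, chr2:5832516-5841517, plus strand) and *NEUROD1* (ENSG00000162992, chr2:182533022-182545554, minus strand) are far apart on chromosome 2. *POU3F2* (ENSG00000184486) is at chr6:99282450-99287334, *ONECUT2* (ENSG00000119547) at chr18:55102606-55158530 and *SOX2* (ENSG00000181449) at chr3:181429713-181432224, all on the plus strand. *SOX2* overlaps the noncoding gene *SOX2-OT* on the same strand, *FOXA1* overlaps *TTC6* on the opposite strand and *NKX2-1* overlaps *SFTA3* on its own strand, so that reads of these pairs could be divided between them in counting.

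The promoter windows of the 2 factors on chromosome 14 are shown in part, since both fell with PP and their own families bind the words searched for. RefSeq promoter windows on GRCh38.p14 (250 bases before to 50 after the start site) were found for 6 of the 9 factors, with 2 windows for *NKX2-1* and none for *INSM1*, *FOXA2* and *SOX11*. The forkhead words TGTTTAC and TGTTTGC and the NKX2-1 word CAAGTG were searched on both strands, and only *NKX2-1* and *FOXA1* held them. Capitals mark the word, written 5′ to 3′ on the strand of the gene, with the position relative to the start site.
NKX2-1, chr14:36519668-36519697, minus strand, TGTTTAC at -130: aaacttaaaggTGTTTACcttgtcatcagc
NKX2-1, chr14:36519686-36519715, minus strand, CAAGTG at -147: taaaaatcctgaCAAGTGaaacttaaaggt
NKX2-1, chr14:36520453-36520482, minus strand, TGTTTGC at -241: ccagtgctgTGTTTGCtcggccgggggtgg
FOXA1, chr14:37595466-37595495, minus strand, TGTTTGC reversed at -235: tacactgctttGCAAACAaagtgagggccc
FOXA1, chr14:37595244-37595273, minus strand, CAAGTG reversed at -12: tcagctcaactgCACTTGcctcgcagaggc

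The first pair belongs to 1 window of *NKX2-1* and the third sequence to another. Among 35116 promoter windows of this length, 3.42% held TGTTTAC, 3.89% TGTTTGC and 11.5% CAAGTG. The SOX word AACAAAG, found in 5.2% of windows, was present in *FOXA1* at -232, where it overlaps the forkhead word. The E-box CACGTG (7.26% of windows), which MYC family proteins bind, was in none of the windows of the 6 factors, nor was CAGATG (14.7%), while CAGCTG (17.9%) was in that of *ONECUT2*. A match describes the letters of these windows, and binding was not measured in these libraries.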

How the data were processed

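RNA of 6 libraries of NCI-H660 cells was analysed, 3 treated with PBS and 3 with PP, grouped by the sample titles. The authors deposited FPKM values of 17177 gene symbols per library. The sources differ on how they were made: the methods name Bowtie on hg19, RSEM, Cufflinks and HTSeq with 2 samples per group, while the study elsewhere gives 3 independent samples, as deposited, and the submitters' processing notes name fastp, HISAT2, HTSeq and GRCh38. The table itself gives no coordinates, so positions come from annotations, each with its build. Each value was a whole multiple of a step per gene, within 0.01 of a count, which gave the counts. The highest total was 11.8% above the lowest.

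Genes with a mean of at least 1 FPKM were fitted with limma 3.58.1 in R 4.3.3 (lmFit, eBayes with an intensity trend) on log2(FPKM + 1), a scale that understates changes of low genes, with Benjamini-Hochberg adjustment over all genes fitted. The fit was tested on simulated data. The rest was done in Python 3.11.15 (scipy 1.17.1, pandas 2.3.3, numpy 2.4.6). The named genes were the 9 factors, the 4 tested genes with the largest called change in each list, the marker genes, and the 2 transcription factors closest to each factor by r; a few genes that this rule or the lists take in are not reported here, and others are named as chosen after their values were seen. The factors and lists were chosen with earlier results of these data known. Alternatives varied the pseudocount, filter, scaling, trend, replicate block, tool and libraries.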

Additional observations from a re-analysis of the deposited data

How the results depend on the processing

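The calls of all 6 factors that passed, and the lack of one for the other 3, were the same under the 13 alternatives run (12 for *FOXA2* and *NEUROD1*, whose own fit has the filter at 0.1 FPKM), with adjusted p values of 0.00246 to 0.0268 for *INSM1* as the nearest to the threshold. The direction of *SOX2*, *ONECUT2* and *NEUROD1* was not fixed. Without PBS replicate 1 the log2 fold change was 0.026 for *SOX2* and 0.000799 for *ONECUT2*. Without PP replicate 1 it was 0.0173 for *SOX2*, and for *NEUROD1* it was 0.0113 without PBS replicate 3 and 0.0136 without PP replicate 2. Over the fits that each left out 1 library the range was -0.039 to 0.026 for *SOX2*, -0.057 to 0.000799 for *ONECUT2* and -0.0769 to 0.0136 for *NEUROD1*. The number of factors higher at the stricter cutoff was 0, and it was 1 with a pseudocount of 0.1 and 2 with limma-voom on recovered counts (*SOX11*, and then also *FOXA2*), and 0 to 1 with a library left out, *SOX11* passing at 1.01 without PBS replicate 2 and at 1.03 without PP replicate 2. Over all genes that cutoff gave 531 lower with a pseudocount of 0.1, and 397 higher and 559 lower with limma-voom, against 263 and 344.

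The median log2 fold changes of the lists moved with the pseudocount of 0.1 and with limma-voom, to 0.55 and 0.56 for the relatives, -0.58 and -0.59 for the other lineage factors, 0.25 and 0.25 for the epithelial factors and -1.38 and -1.40 for the lung epithelial genes. With the filter at 0.1 FPKM they were -0.38 for the other lineage factors, 0.0732 for the epithelial factors and -0.21 for the effectors, and with no filter 0.11 for the relatives, -0.0952 for the other lineage factors, 0.0301 for the epithelial factors, -0.14 for the effectors and -0.0814 for the lung epithelial genes, since genes near 0 enter. With the filter at 0.1 FPKM 4 other lineage factors and 2 lung epithelial genes were higher, and with no filter 4 of the latter. The count of higher other lineage factors was 1 to 2 with a library left out, falling to 1 without PBS replicate 1 or 3 or PP replicate 1 or 3. With a pseudocount of 1 the log2 ratio of *FOXA2* to *FOXA1* differed by 0.81 and that of *SOX11* to *SOX2* by 1.001. With a library left out they were 1.43 to 2.35 and 1.06 to 1.18.

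The replicate numbers did not pair the libraries: deviations from the treatment means correlated at -0.21, -0.01 and -0.13 for numbers 1, 2 and 3. In a fit with a replicate block the calls of the 9 factors did not change, the adjusted p of *INSM1* was 0.0206, and 1 other lineage factor was higher in place of 2. Low counts limit what is known of *NEUROD1* and *FOXA2*.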

Other observations

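The genes next to the factors on the chromosome were also read. Within 500 kb of the 9 factors the annotation places 28 protein-coding genes, of which 16 had a mean of at least 1 FPKM, and 7 of these were higher and 4 lower with PP at an adjusted p under 0.05 from limma, against 38.1% and 34.4% of all tested genes. This window was chosen after the data were seen. Around *NKX2-1* the lower genes were *MBIP*, 196 kb away, which encodes a MAP kinase binding protein and stood at 132 ± 5.46 FPKM with PBS and 56.0 ± 2.96 with PP (SD, n = 3), and the developmental factor *PAX9*, 136 kb away, at 31.0 ± 0.887 and 21.3 ± 0.987. The log2 fold changes were -1.22 for *MBIP* and -0.52 for *PAX9*, against -1.28 for *NKX2-1*. *MBIP* was also counted in the lung epithelial list above, so it is not a separate observation there. In the same stretch *NKX2-8* was higher at 0.57, and *SLC25A21*, a mitochondrial carrier, had a log2 fold change of -0.02 (adjusted p = 0.768 from limma).

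*TTC6*, which overlaps *FOXA1* on the opposite strand, was lower with PP, at 2.43 ± 0.0457 FPKM with PBS and 0.941 ± 0.102 with PP (SD, n = 3), a log2 fold change of -0.82 against -0.27 for *FOXA1*. The kit named in the labels keeps strand, and whether the counting used it is not given in the sources used here. Next to *POU3F2*, which fell, *FBXL4* at 29.1 kb was higher, with a log2 fold change of 0.51.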
